A study of Mus musculus with 7 samples.

Results

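Microglia, the resident macrophages of the brain, were followed through 39 gene symbols that mark these cells, their receptors, or their responses, in the forebrain of P15 *Lhx6* mutant mice. The members were taken by symbol from a table of 47729 genes, and they matched 40 gene entries, because *Itgam* carries a pair of gene identifiers. Of these 40 entries, 34 passed the filter on low counts and entered the test, and 6 did not. The control group was 4 forebrain samples of Lhx6+/- mice and the mutant group was 3 samples of Lhx6-/- mice, each sample a pool of 2 animals. Both groups carried the null allele Lhx6tm2Vpa, on 1 chromosome in the controls and on both in the mutants, so that no wild-type forebrain was in the comparison. All mice were F1(C57BL/6 X 129Sv), 15 days old, with both sexes in each group, the control pools of 1 sex each and the mutant pools mostly mixed. The allele was present in every cell of the animal. The libraries are named here by the number in their column of the count table (control 2, 3, 10 and 11, mutant 5, 12 and 13), which could not be matched to the pools in the labels.

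Microglia enter the brain from the yolk sac in the embryo and maintain themselves there by division. Their survival depends on the receptor Csf1r and its ligands Csf1 and Il34, and their identity on the transcription factors Spi1, Irf8 and Sall1. In the resting state they survey the tissue with purinergic and fractalkine receptors, and they take up dying cells and synapses with help from complement C1q, Trem2 and Mertk. In development, injury and disease, many of them lower this signature and raise genes of lysosomes, lipid handling and secreted signals. In *Lhx6* mutants interneurons of the medial ganglionic eminence are affected, and the study asked how the forebrain around them differs.

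The genotype of the libraries was seen in *Lhx6* itself, a LIM homeobox gene of these interneurons, which had 615, 522, 476 and 522 normalized counts in the controls and 70.9, 76.6 and 70.1 in the mutants (edgeR's quasi-likelihood test, log2 fold change −2.88 with a standard error of 0.13, adjusted p = 5.99e-05). The totals were 32556304 to 38069151 expected counts per library, so that 3 counts correspond to between 0.0788 and 0.0921 CPM (counts scaled to a common library total). The largest axis of variation over all genes (39.6% of the variance) separated libraries 2, 3 and 5 from libraries 10 to 13, and the second (23.4%) separated the genotypes. Values within each run of numbers are therefore given below for the called microglia genes of the set and some that were not called. They are not given for genes outside the set. What the run of numbers stands for is not given in the labels.

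Transcripts of the defining microglia genes were present in every library. In CPM per kilobase of exon, the highest control levels were those of the complement gene *C1qb* at 28.6, *Csf1r* at 26.2, *C1qa* at 24.1, the lysosomal protease cathepsin S (*Ctss*) at 19.4, the ADP receptor *P2ry12* at 16.9, and the fractalkine receptor *Cx3cr1* at 16.5. These levels depend on the length taken: with the mean length of a gene's transcripts in place of all its exons, *Laptm5* came first at 67.0 (12.7 by exons), followed by *Selplg* at 30.8 (7.24), *Csf1r* at 29.9 and *C1qb* at 28.6. At the other end by exons, *Itgax*, *Tnf*, *Cst7*, *Ccl3* and *Ccl4* stood below 0.1 in the controls. On the same scale, the levels of all 40 entries summed to 265 ± 6.04 in the controls (SD, n = 4) and to 259 ± 10.7 in the mutants (SD, n = 3), which is 97.6% of the control sum. The sums were 261, 274, 262 and 265 in the controls and 247, 265 and 265 in the mutants, so that the groups overlapped. Sums by role went both ways and were not tested. Surface and secreted signature genes summed to 30.8 to 34.9 in the controls and 25.3 to 29.3 in the mutants (86.2%), without overlap. Signature receptors stood at 87.2%, growth factor and adhesion receptors at 90.5% and C1q at 96.7% of the control sum. All other roles stood at 103% or more, such as lysosomal and endosomal genes at 117%. In whole tissue, fewer cells of a type and less RNA per cell cannot be told apart.

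**Figure D1:**
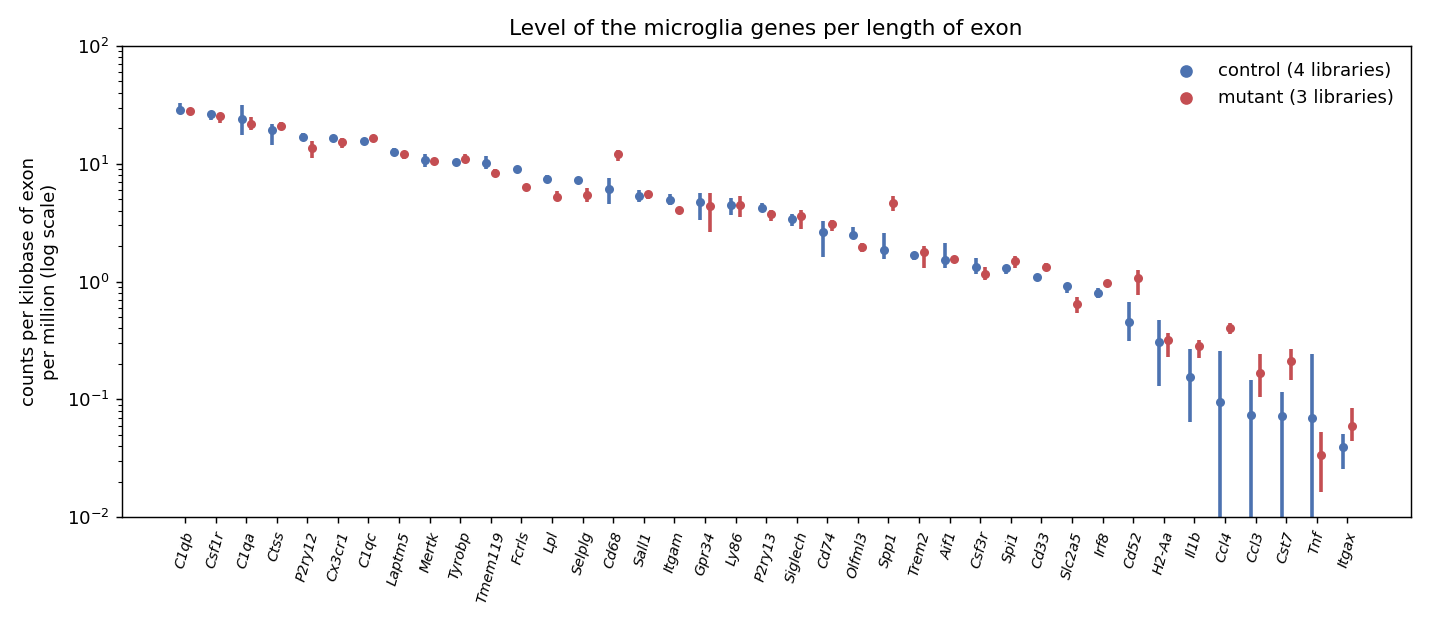
Level of each microglia gene in CPM per kilobase of exon (log scale), ordered by the control level, with the group mean as a point and the range over libraries as a line (controls blue, n = 4; mutants red, n = 3). Lines that reach the lower edge include a library at 0, and the second *Itgam* identifier is left out for its low level. The genotypes lie close together for most genes, and *Cd68* (6.15 against 12 CPM per kilobase) and *Spp1* (1.85 against 4.61) stand higher in the mutants.

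The promoters of *Cd68* and *Spp1*, the genes that rose in the mutants, are shown with matches to sites of Spi1 (PU.1), the factor that sets the macrophage lineage, Runx and AP-1. Each sequence is the 250 bases before the annotated start in the RefSeq table of build GRCm38.p6, read 5′ to 3′ on the strand of the gene. *Cd68* is on the minus strand at chr11:69666171-69666420, and *Spp1*, shown for the first of its 2 annotated starts, is on the plus strand at chr5:104434861-104435110. Capitals mark matches, on either strand, to GAGGAA (the Spi1 core), TGTGGTT (a Runx site, AACCACA when read on the other strand) and TGANTCA (an AP-1 site).
Cd68: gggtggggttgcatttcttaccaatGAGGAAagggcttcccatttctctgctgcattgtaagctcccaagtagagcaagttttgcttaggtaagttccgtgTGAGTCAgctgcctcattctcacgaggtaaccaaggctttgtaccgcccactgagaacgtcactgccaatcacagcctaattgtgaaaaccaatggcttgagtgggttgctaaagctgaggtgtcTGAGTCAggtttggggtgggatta
Spp1: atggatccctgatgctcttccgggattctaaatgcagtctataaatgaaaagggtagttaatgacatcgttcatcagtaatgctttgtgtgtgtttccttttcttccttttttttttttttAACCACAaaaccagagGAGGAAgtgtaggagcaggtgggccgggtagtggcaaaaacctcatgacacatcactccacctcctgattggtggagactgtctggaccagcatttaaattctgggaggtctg

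In *Cd68*, the GAGGAA match began 225 bases before the start, and a pair of AP-1 matches began 149 and 24 bases before it. In *Spp1*, the GAGGAA match began 113 bases and the Runx match 129 bases before the start. No base was shared between matches. Of the 28 member genes in the promoter table, 15 held GAGGAA, and by promoters the share was 46.9% of 32, against 23.3% of all 32851 promoters of this length. The letters were not particular to the genes that rose, as *Fcrls*, which was lower in the mutants, held GAGGAA too. The Runx letters were found for *Fcrls*, *Siglech* and *Spp1* (9.38% of the 32 promoters, 4.4% of all) and the AP-1 letters for *Cd68*, *Itgax* and *Trem2* (9.38%, against 6.75% of all). A match describes the letters and does not show that a factor binds there.

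Between genotypes, 4 of the 34 tested microglia genes differed at an adjusted p of 0.05 or less (11.8%, where 4.85% of the 19684 genes tested over the whole transcriptome did). An unadjusted p under 0.05 was reached by 13 of the 34, and by 3590 of the 19684 (edgeR). Counts at that level in single groups below stand beside this share of all genes. The lysosomal glycoprotein gene *Cd68* and the secreted phosphoprotein gene *Spp1* (osteopontin) were higher in the mutants, which is 5.88% of the members against 2.97% of all genes. *Fcrls*, an Fc receptor-like gene of resting mouse microglia, and *Lpl*, encoding lipoprotein lipase, were lower, again 5.88% of the members, against 1.87% of all genes. The median log2 fold change of the 34 genes was −0.031, beside −0.013 for all genes tested, with 16 above 0 and 18 below, where 47.8% of all genes lay above 0. DESeq2 called 3 members higher and 3 lower, against 5.29% and 3.88% of all genes, and edgeR with the run of numbers in the fit called 2 higher and 4 lower, against 6.16% and 5.04% of all genes. By the raw separation of libraries, all mutants lay above all controls for 5 members (14.7%, against 10.7% of all genes) and below all controls for 8 members (23.5%, against 9% of all genes), with 19.7% of all genes apart in either direction, and the other 21 overlapped.

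**Figure D2:**
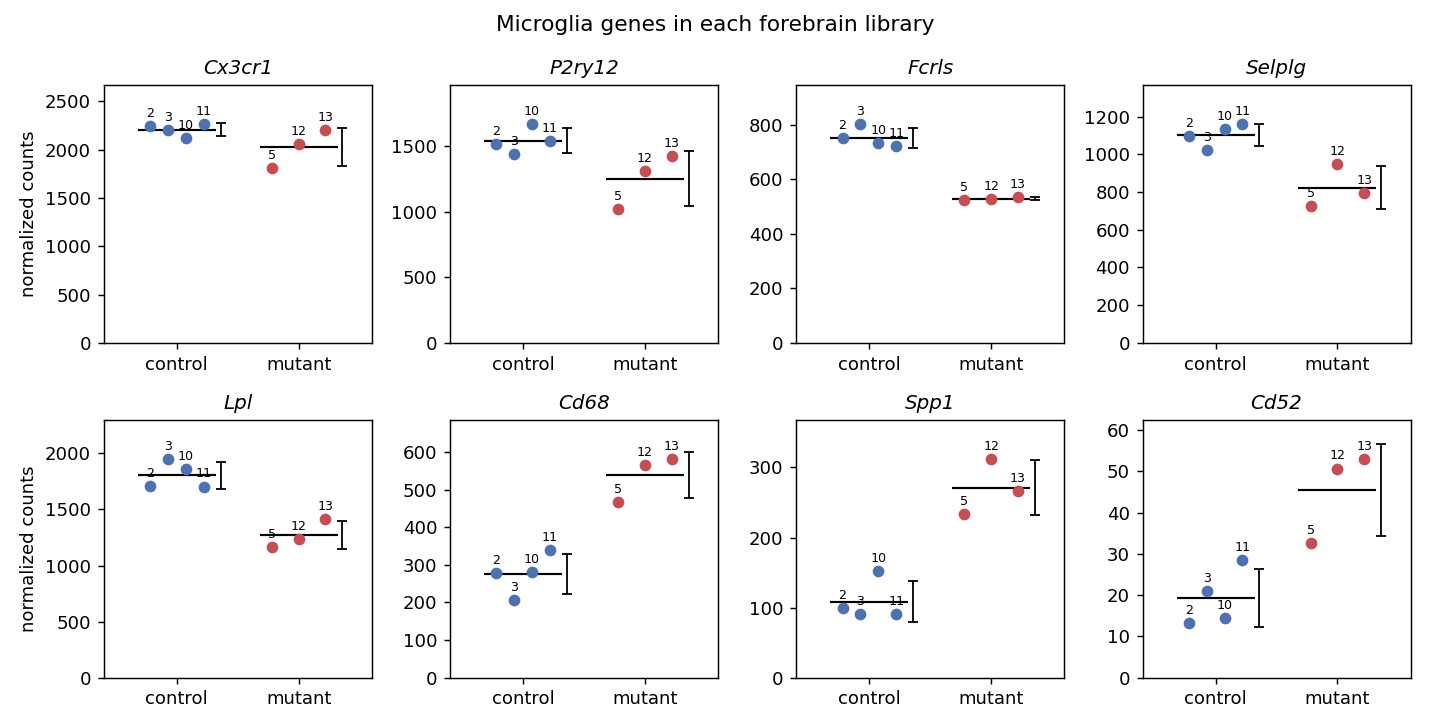
Normalized counts of 8 microglia genes in each library, numbered, with the mean as a horizontal line and the SD as a bracket (controls blue, n = 4; mutants red, n = 3; axes start at 0). The mutant libraries lie below the controls for *P2ry12*, *Fcrls*, *Selplg* and *Lpl*, above them for *Cd68*, *Spp1* and *Cd52*, and overlap them for *Cx3cr1*.

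Among the receptors of resting microglia, none passed the test by edgeR, DESeq2 or limma-voom, and 1 of 4 had an unadjusted p under 0.05 (3590 of 19684 over all genes). *Cx3cr1*, which binds the neuronal chemokine fractalkine, had 2246, 2202, 2116 and 2262 normalized counts in the controls and 1814, 2058 and 2206 in the mutants. Mutant library 5 was the lowest of the 7, and of the mutants library 13 lay within the control range (log2 fold change −0.12 ± 0.083 SE, adjusted p = 0.513, edgeR's quasi-likelihood test). *P2ry12*, which directs processes of microglia toward ADP, had 1515, 1438, 1664 and 1537 in the controls against 1016, 1306 and 1422 in the mutants. All mutants were below all controls, library 13 only just (log2 fold change −0.30 ± 0.12 SE, adjusted p = 0.216, edgeR). When the run of numbers entered the fit, the adjusted p of *P2ry12* was 0.0317 (edgeR), and the log2 fold change was −0.54 in libraries 2, 3 and 5 and −0.22 in libraries 10 to 13. The neighbouring purinergic receptor gene *P2ry13* (350 to 420 against 294 to 368) and the lysophosphatidylserine receptor gene *Gpr34* (248 to 421 against 195 to 425) overlapped between genotypes.

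Of the surface and secreted signature genes, 1 of 8 was lower, none was higher in edgeR, and *Cd52* was called higher by DESeq2. *Fcrls* (ENSMUSG00000015852, chr3:87250758-87263738, minus strand) had 751, 802, 732 and 722 normalized counts in the controls and 524, 527 and 535 in the mutants. The mutants fell within 11 counts of each other and all lay well under the controls, at 70.3% of the control mean (log2 fold change −0.51 ± 0.087 SE, adjusted p = 0.0138, edgeR's quasi-likelihood test). *Fcrls* was lower within both runs of library numbers, by −0.57 in libraries 2, 3 and 5 and −0.44 in libraries 10 to 13. Leaving out any one mutant library ended the call, with adjusted p up to 0.0786 (edgeR).

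The transmembrane gene *Tmem119*, used to tell microglia from other macrophages, had 959, 861, 752 and 794 in the controls against 667, 750 and 650 in the mutants. Its groups were apart by 2 counts (log2 fold change −0.29, adjusted p = 0.210, edgeR). *Olfml3*, a secreted olfactomedin-like gene, had 540, 635, 501 and 524 against 389, 467 and 448, and *Slc2a5*, encoding the fructose transporter Glut5, had 118, 118, 96.9 and 111 against 66.1, 90.0 and 80.5. In both genes every mutant was below every control, and neither passed the test (log2 fold changes −0.34 and −0.49, adjusted p = 0.180 and 0.160, edgeR). Opposite to these, *Cd52*, a small glycoprotein of leukocyte surfaces, had 13.2, 21.1, 14.4 and 28.5 in the controls and 32.6, 50.7 and 53.0 in the mutants. The mutants were all higher, at 236% of the control mean (log2 fold change 1.23 ± 0.33 SE, adjusted p = 0.0773 in edgeR and 0.0332 in DESeq2). *Cd52* overlaps the gene *Aim1l* over 14.5% of its exon length, and the library kit does not mark strand. *Aif1* (Iba1), the usual histological marker of microglia, had 72.4, 116, 71.0 and 73.2 against 86.2, 79.7 and 89.0, with control library 3 above all others (adjusted p = 0.968, edgeR). *Siglech*, a sialic acid-binding lectin gene (358 to 451 against 335 to 493), and *Ly86*, a partner of a Toll-like receptor homologue (129 to 182 against 125 to 190), overlapped.

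Growth factor and adhesion receptors gave no call in edgeR or limma-voom, and 1 of 4, *Selplg*, in DESeq2, while 2 of 4 had an unadjusted p under 0.05 (3590 of 19684 over all genes). *Csf1r*, the receptor on which microglial survival depends, had 4567, 4135, 4726 and 4856 normalized counts in the controls and 3827, 4694 and 4679 in the mutants. Only mutant library 5 lay outside the controls (log2 fold change −0.06 ± 0.10 SE, adjusted p = 0.844, edgeR's quasi-likelihood test). *Selplg*, encoding the P-selectin ligand PSGL-1, had 1095, 1022, 1134 and 1159 in the controls against 725, 946 and 797 in the mutants. All mutants were lower, at 74.6% of the control mean, yet the adjusted p was 0.0609 in edgeR, and 0.00889 in DESeq2 and 0.0103 in edgeR with the run in the fit (log2 fold change −0.42, standard error 0.11). For *Itgam* (CD11b), the integrin chain of the complement receptor CR3, the main identifier had 984, 799, 843 and 882 against 724, 755 and 707, again with no overlap (log2 fold change −0.27, adjusted p = 0.180, edgeR). Its second identifier overlaps it over most of its exons and had at most 5 counts in any library, and with both summed, a choice made after seeing the data, the log2 ratio of the group means was −0.26. *Csf3r*, the receptor of granulocyte colony-stimulating factor, overlapped (151 to 206 against 134 to 173).

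The 3 chains of complement C1q, which microglia make for the whole brain and which tag synapses for removal, gave no call by edgeR, DESeq2 or limma-voom, and none had an unadjusted p under 0.05. *C1qa* had 995, 1181, 654 and 752 normalized counts in the controls and 925, 781 and 720 in the mutants, and *C1qb* had 1056, 1268, 1040 and 1076 against 1060, 1122 and 1056. The mutants lay inside the control range in both genes, and library 3 was the highest control. The log2 fold changes of *C1qa*, *C1qb* and *C1qc* were −0.15, −0.04 and 0.08, with standard errors of 0.20, 0.092 and 0.086.

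Receptors of phagocytosis and its restraint likewise gave no call by any of the 3 tools, with 1 of 4 at an unadjusted p under 0.05. *Trem2*, the lipid-sensing receptor, had 268, 308, 313 and 303 in the controls and 355, 232 and 354 in the mutants, so that the mutants held both the highest values and the lowest (log2 fold change 0.08, adjusted p = 0.872, edgeR). *Tyrobp* (DAP12), the adaptor through which Trem2 signals, had 245, 247, 254 and 233 against 285, 248 and 255 (log2 fold change 0.10, adjusted p = 0.705, edgeR). The inhibitory lectin gene *Cd33* had 317, 287, 306 and 303 in the controls and 364, 354 and 398 in the mutants. All mutants were higher, by an amount that did not pass the test (log2 fold change 0.29, adjusted p = 0.163, edgeR). *Mertk*, a kinase that recognizes dying cells through Gas6 and Pros1 and that astrocytes also express, overlapped (1450 to 1867 against 1576 to 1723).

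The transcription factor genes also gave no call by the 3 tools, and 1 of 3 had an unadjusted p under 0.05. *Irf8* had 202, 204, 184 and 221 normalized counts in the controls against 253, 244 and 239 in the mutants, all higher (log2 fold change 0.28, adjusted p = 0.240, edgeR's quasi-likelihood test). *Spi1* ranged from 113 to 133 in the controls and from 125 to 157 in the mutants, and *Sall1*, the factor that keeps the microglial state, from 893 to 1132 and from 948 to 1105.

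*Cd68* (ENSMUSG00000018774, chr11:69664213-69666153, minus strand) was the 1 of 3 lysosomal and endosomal genes to rise, and its product is a standard stain for phagocytic microglia. It had 279, 206, 280 and 338 normalized counts in the controls and 468, 566 and 581 in the mutants. The lowest mutant stood above the highest control, with the mutants at 195% of the controls on average (log2 fold change 0.97 ± 0.17 SE, adjusted p = 0.0152, edgeR's quasi-likelihood test). The rise was 0.95 in libraries 2, 3 and 5 and 0.90 in libraries 10 to 13. Without mutant library 12 or 13 the adjusted p rose above the threshold, to at most 0.0825 (edgeR). The other members of the group, cathepsin S and the lysosomal membrane gene *Laptm5*, did not pass the test. *Ctss* had 697, 1025, 1048 and 985 against 941, 996 and 1083, and *Laptm5* ranged from 1637 to 1836 and from 1471 to 1744. Their adjusted p-values were 0.797 and 0.654 (edgeR).

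The secreted genes of activated microglia and of lipid handling changed in opposite directions. *Spp1* (ENSMUSG00000029304, chr5:104435118-104441050, plus strand), a matrix and signalling protein that some neurons also make, had 99.8, 91.4, 152 and 91.5 in the controls and 234, 312 and 267 in the mutants. Every mutant exceeded every control, at 249% of the control mean (log2 fold change 1.32 ± 0.21 SE, adjusted p = 0.0102, edgeR's quasi-likelihood test). *Spp1* passed the threshold in all 17 alternative fits that gave a p, with the highest adjusted p at 0.0497 (edgeR), and rose by 1.29 and 1.25 within the runs of library numbers. It shares 18.75% of its exon length with the gene *Gm42793*, from which reads cannot be told apart by strand.

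*Lpl* (ENSMUSG00000015568, chr8:68880491-68907448, plus strand) releases fatty acids from lipoproteins and is transcribed by other brain cells as well. It had 1706, 1950, 1863 and 1705 normalized counts in the controls and 1168, 1234 and 1415 in the mutants. All mutants were lower, at 70.4% of the control mean (log2 fold change −0.51 ± 0.093 SE, adjusted p = 0.0187, edgeR). The difference was −0.65 in libraries 2, 3 and 5 and −0.42 in libraries 10 to 13. Without control library 10, mutant library 5 or mutant library 12 its call was lost, with adjusted p up to 0.0905 (edgeR). *Lpl* moved with oligodendrocyte markers, whose summed level was 1170 to 1590 in the controls and 855 to 1110 CPM per kilobase of exon in the mutants. Their part in its fall was not tested. *Cst7* (cystatin F) and *Itgax* (CD11c), 2 further genes of activated microglia, did not pass the filter on low counts. *Cst7* had 3.29, 0, 2.88 and 4.07 in the controls and 7.66, 5.18 and 9.47 in the mutants, and *Itgax* 4.39 to 8.63 and 7.57 to 14.5. With no filter on low counts the adjusted p of *Cst7*, whose mutants were all above the controls, was 0.525, and that of *Itgax* was 0.682 (edgeR).

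The MHC class II genes *Cd74* (81.2 to 165 normalized counts in the controls, 134 to 169 in the mutants) and *H2-Aa* (8.77 to 31.7 against 15.3 to 24.6) overlapped, with no call and no unadjusted p under 0.05 in edgeR, and no call in DESeq2 or limma-voom. Of the cytokines and chemokines, *Il1b* alone passed the filter on low counts, at 4.39 to 18.1 in the controls and 15.3 to 21.7 in the mutants (log2 fold change 0.85 ± 0.45 SE, adjusted p = 0.371, edgeR). *Ccl4*, a macrophage chemokine gene, had 0, 6.03, 1.92 and 1.02 in the controls and 10.5, 9.32 and 8.52 in the mutants, on at most 11 counts in any library. Its mutants were all higher, with an adjusted p of 0.339 when no filter on low counts was set (edgeR). *Ccl3* (0 to 4.02 against 2.84 to 6.71) and *Tnf* (0 to 14.1 against 0.958 to 3.11) overlapped. Without the filter their adjusted p-values were 0.682 and 0.762 (edgeR), on at most 7 and 14 counts in any library, and no difference was detected. For *Tnf*, the 14.1 was in control library 3, with 0 to 1.10 in the other controls.

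**Figure D3:**
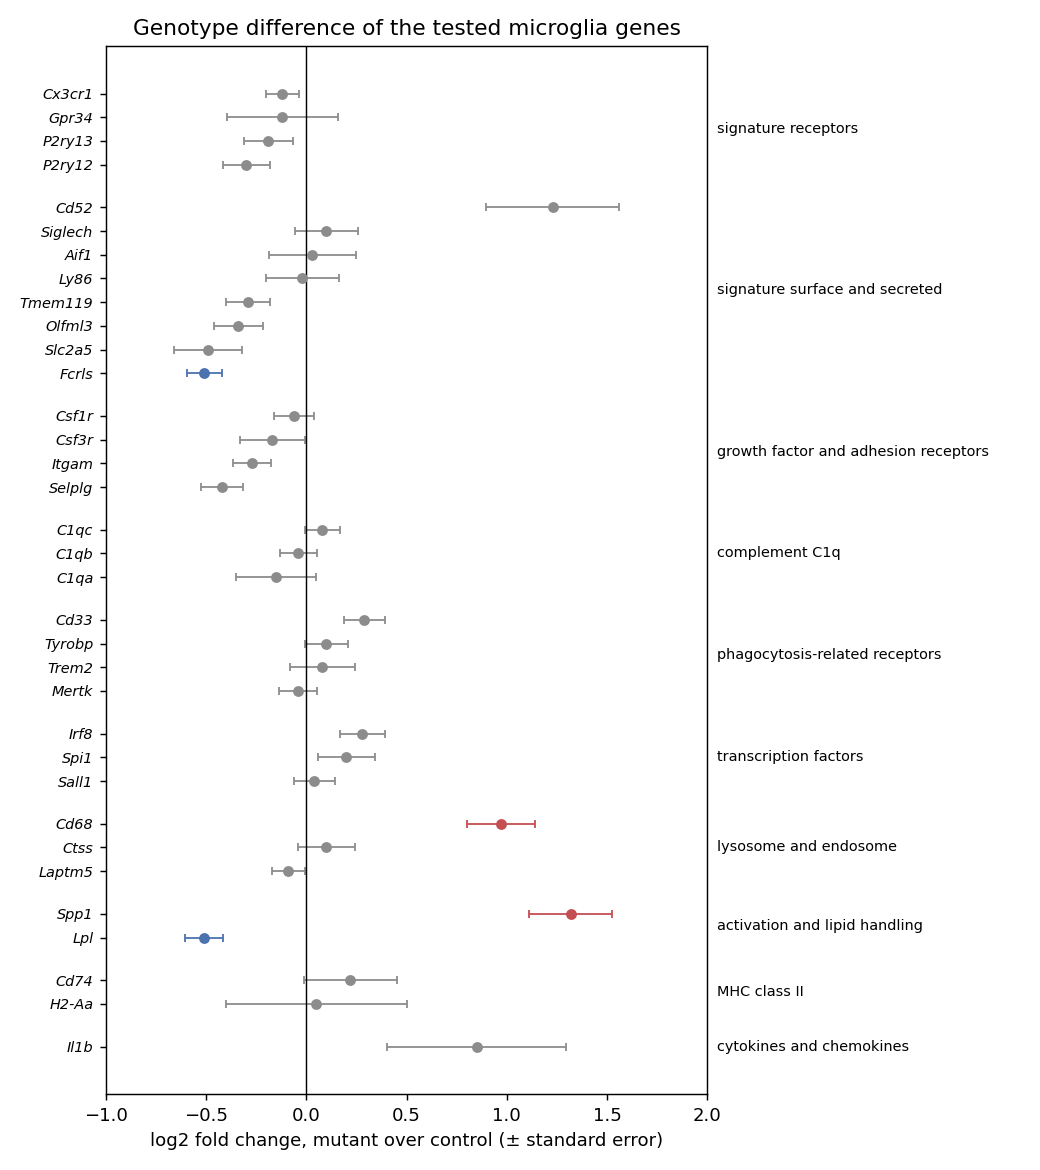
Log2 fold change (mutant over control) of the 34 tested microglia genes, grouped by role, with the standard error from the edgeR fit. Red marks genes called higher (*Cd68*, 0.97, and *Spp1*, 1.32), blue genes called lower (*Fcrls* and *Lpl*, both −0.51) and grey genes that did not pass an adjusted p of 0.05.

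To set the microglia genes beside a microglia marker in the same library, counts were expressed per 100 counts of *Cx3cr1*. The mutant mean of *Cx3cr1* was 91.8% of its control mean, which raises the mutant ratios on average. Because *Spp1* and *Lpl* are also made by other cells, the ratios are not levels per microglial cell. *Cd68* then ranged from 9.35 to 15.0 in the controls and from 25.8 to 27.5 in the mutants, and *Spp1* from 4.04 to 7.17 and from 12.1 to 15.1. Both stayed apart on this scale. *Fcrls* ranged from 31.9 to 36.4 in the controls and from 24.2 to 28.9 in the mutants, and *Lpl* from 75.4 to 88.6 and from 60.0 to 64.4, also without overlap. *P2ry12* (65.3 to 78.6 against 56.0 to 64.5) and *Selplg* (46.4 to 53.6 against 36.1 to 46.0) were lower in each mutant by a narrow margin. By contrast *Csf1r* (188 to 223 against 211 to 228) and *C1qb* (47.0 to 57.6 against 47.9 to 58.4) overlapped. These ratios are a description and were not tested.

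Further genes of microglial biology were read from lists kept separate from the 39 symbols. Of 52 other microglia genes reported here, 2 were higher (3.85%, against 2.97% of all genes), with a median log2 fold change of 0.09. *Runx1*, a transcription factor gene of blood and immature microglia, rose from 36.5 ± 4.77 normalized counts in the controls (SD, n = 4) to 66.9 ± 4.02 in the mutants (SD, n = 3), and *Golm1*, a Golgi membrane gene, from 1072 ± 106 to 1448 ± 108. Their adjusted p-values were 0.0372 and 0.0454 (edgeR's quasi-likelihood test), and the calls were lost on leaving out any library for *Runx1*, and any but control library 3 for *Golm1*.

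Among the disease-associated microglia genes, which microglia raise around plaques and dying cells, 3 of 19 tested were higher (15.8%, against 2.97% of all genes) and none was lower (none at an unadjusted p under 0.05 and none in DESeq2 or limma-voom). *Gpnmb*, a transmembrane glycoprotein of lysosome-rich phagocytes, rose most, from 45.0, 52.2, 83.5 and 64.0 normalized counts in the controls to 282, 379 and 247 in the mutants (log2 fold change 2.30 ± 0.24 SE, adjusted p = 0.00145, edgeR). The lowest mutant was far above the highest control, and per 100 *Cx3cr1* counts *Gpnmb* ranged from 2.00 to 3.95 and from 11.2 to 18.4. The growth factor gene *Igf1*, which neurons also express, was higher (522 ± 24.0 against 830 ± 42.8, log2 fold change 0.67, adjusted p = 0.00507, edgeR), as was the stress-response factor gene *Atf3* (21.2 ± 8.83 against 74.6 ± 19.2, log2 fold change 1.82, adjusted p = 0.0171, edgeR). *Gpnmb* and *Igf1* kept their calls on leaving out any library, and *Atf3* lost its call without control library 10 or 11 or mutant library 12. The median over the 19 genes was 0.27, and DESeq2 called 7 of them higher, where it called 5.29% of all genes higher.

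In the list drawn up for Csf1r and Trem2 signalling, 2 of 17 tested genes were higher (11.8%, against 2.97% of all genes) and none lower in edgeR. In the same list 1 had a lower value at an unadjusted p under 0.05, and limma-voom called none lower and DESeq2 1. *Syk*, the kinase that docks on Tyrobp, went from 237 ± 27.8 to 384 ± 27.2 normalized counts, and *Blnk*, an adaptor phosphorylated by Syk, from 207 ± 29.3 to 413 ± 83.2 (log2 fold changes 0.70 and 1.00, adjusted p = 0.0184 and 0.0130, edgeR). The call of *Blnk* was lost without mutant library 12, and that of *Syk* without control library 10 or any of the mutant libraries. The median of the 17 genes was 0.13, and *Trem2* and *Tyrobp* themselves did not pass.

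Ligands that other brain cells present to microglia gave 1 higher and 2 lower of 13 tested, with a median log2 fold change of 0.12. These are 7.69% and 15.4%, against 2.97% and 1.87% of all genes. *Il34*, the neuronal ligand of Csf1r, had 1796, 1828, 1877 and 1899 in the controls and 1149, 1495 and 1360 in the mutants, all lower (log2 fold change −0.47 ± 0.096 SE, adjusted p = 0.0284, edgeR's quasi-likelihood test). The other ligand, *Csf1*, overlapped, with 453 to 586 against 525 to 648. *Mfge8*, a bridge between phosphatidylserine on dying cells and phagocytes, fell from 6394 ± 454 to 4369 ± 596 (log2 fold change −0.55, adjusted p = 0.0277, edgeR). *Pros1*, a ligand of Mertk, rose from 373 ± 29.1 to 538 ± 33.6 (log2 fold change 0.52, adjusted p = 0.0288, edgeR), while *Gas6*, the other ligand, had 4031 to 4131 in the controls and 3628 to 3998 in the mutants and did not pass (adjusted p = 0.442, edgeR). Without control library 2, 10 or 11, or mutant library 5 or 13, all 3 calls were lost, and without mutant library 12 those of *Mfge8* and *Pros1*. The fractalkine gene *Cx3cl1* was lower in all mutants (28748 to 31437 against 33197 to 35870), with an adjusted p of 0.179 (edgeR). DESeq2 called *Cx3cl1* lower, and the ligand gene *Tgfb2* higher.

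Of 12 other complement genes tested, 1 was higher (8.33%, against 2.97% of all genes) and none lower (none at an unadjusted p under 0.05, and none in DESeq2 or limma-voom). This was *C4b*, which acts after C1q in the classical cascade and which astrocytes and oligodendrocytes also make. It had 382, 327, 478 and 516 normalized counts in the controls and 1321, 1660 and 1489 in the mutants (log2 fold change 1.81 ± 0.16 SE, adjusted p = 0.000734, edgeR). The groups were far apart, whereas the C1q chains upstream of it overlapped. Of the stretches of 36 bases in *C4b*, the length of a read, 44.28% are shared with other genes. Its count thus rests in part on reads that cannot be told apart by sequence. The share was 28.35% for *Golm1* and 34.56% for the border macrophage marker *Cd209f*. *C3* had 12.1 to 22.1 against 12.5 to 35.0 (adjusted p = 0.403, edgeR). Among inflammatory genes 1 of 22 tested was higher (4.55%, against 2.97% of all genes), the costimulatory receptor gene *Cd40* (78.4 ± 12.1 against 138 ± 18.6, log2 fold change 0.82, adjusted p = 0.0358, edgeR), and none lower (none at an unadjusted p under 0.05, and none in the other tools). Its call was lost without control library 3, 10 or 11 or any mutant library. None of 8 other MHC class II genes was called by edgeR, DESeq2 or limma-voom, with 2 at an unadjusted p under 0.05 in edgeR. The medians of the inflammatory and the MHC class II genes were 0.14 and 0.15.

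**Figure D4:**
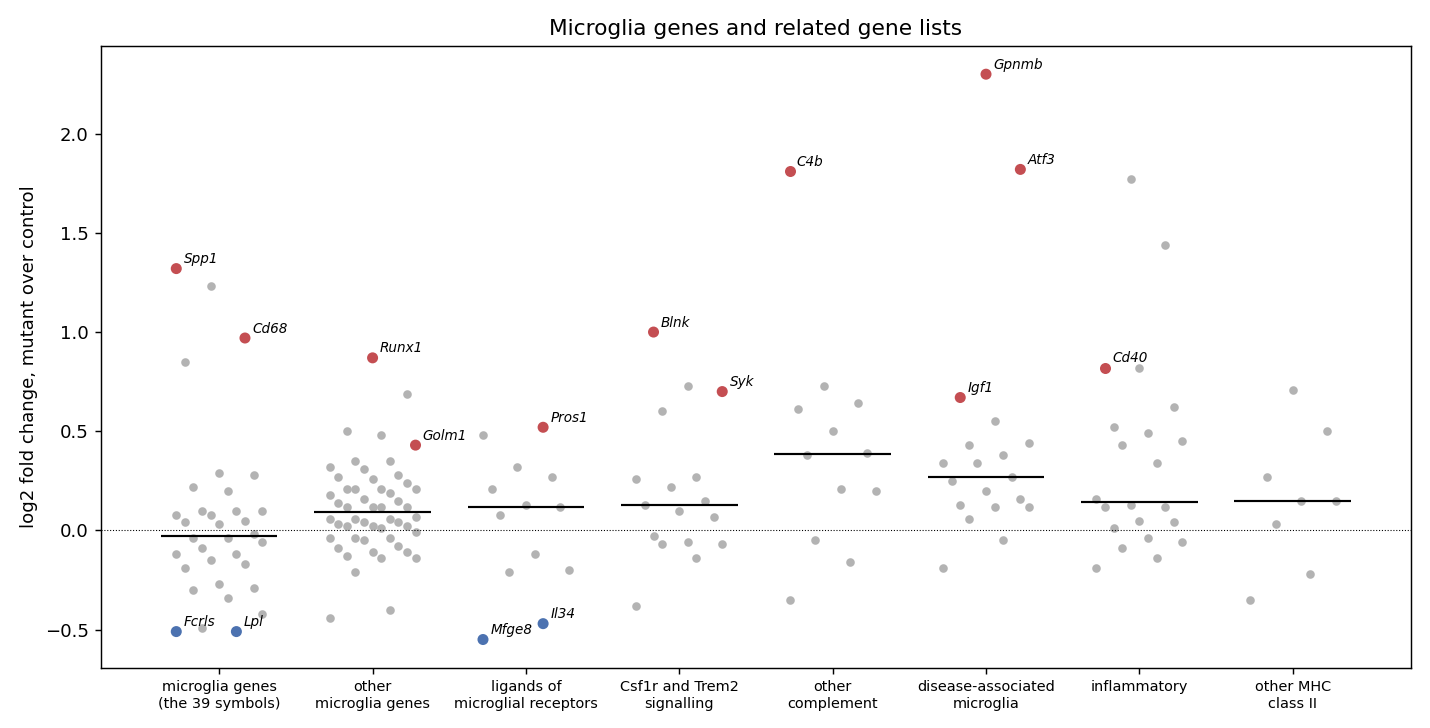
Log2 fold change (mutant over control) of the tested genes reported here, from the set of 39 symbols and 7 related lists, 1 point per gene, with the list's median as a line. Genes with an adjusted p of 0.05 or less are coloured (red higher, blue lower) and named. The medians lie between −0.031 for the microglia genes and 0.38 for the other complement genes, and *Gpnmb* at 2.30 is the farthest from 0.

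Markers of other cells were read in the same libraries, since several of these genes are not restricted to microglia. The 10 markers of border macrophages summed to 8.48 to 10.2 CPM per kilobase of exon in the controls and 8.48 to 8.67 in the mutants. None of these was higher (none at an unadjusted p under 0.05, and none in DESeq2 or limma-voom), and 1 of 9 tested, *Cd209f*, was lower (16.5 ± 4.57 against 3.95 ± 1.79, adjusted p = 0.0453, edgeR), a call that leaving out any library ended. The 16 markers of other leukocytes summed to 1.97 to 3.13 and 2.60 to 2.97, with *Nkg7* at 0 in every library and 9 of them at 10 counts or fewer. Red blood cell markers overlapped, with 429 to 1200 in the controls and 226 to 696 in the mutants. Astrocyte markers summed to 560 to 766 and 952 to 1080, with *Gfap* the 1 of 8 called higher in edgeR (6537 ± 490 against 25196 ± 2556 normalized counts, adjusted p = 7.4e-05). Oligodendrocyte markers *Mbp*, *Mag* and *Cnp* were lower, 3 of 8, and lost their calls without mutant library 13. Endothelial and mural markers summed to 83.2 to 101 in the controls and 109 to 128 in the mutants, with no call in edgeR or limma-voom, 4 called higher by DESeq2, and 6 of 8 at an unadjusted p under 0.05 (3590 of 19684 over all genes). Neuron markers summed to 1410 to 1490 in the controls and 1460 to 1640 in the mutants, and forebrain markers to 154 to 206 and 181 to 215, whereas hindbrain markers stood at 0.166 to 0.461 and 0.206 to 0.268. The part of these cells in the microglia genes that differed was not tested.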

How the data were processed

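Forebrain RNA was sequenced as 36 bp single-end reads from TruSeq libraries, a kit that does not mark strand. Per the submitters' processing notes, the authors trimmed reads with cutadapt 1.9.1, aligned them to GRCm38 transcripts with Bowtie2 2.2.9 and estimated gene abundance with RSEM 1.2.31. The deposited expected counts are not normalized. A second deposited table, of the authors' own genotype comparison, was used only to pair gene identifiers with symbols.

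Expected counts were rounded to whole numbers. The test took in genes that reached 10 counts in 3 or more of the 7 libraries (19684 of 47729) and was run between genotypes with edgeR 4.0.16 in R 4.3.3 (TMM factors, quasi-likelihood F-test), and p-values were adjusted by Benjamini-Hochberg over all of them, with a threshold of 0.05. The study's comparison used DESeq2, and the paper describes no covariates for it. DESeq2 1.42.0 and limma 3.58.1 (voom) served as alternatives. On simulated counts for these genes, the test recovered 67 of 100 changes of 1 on the log2 scale and 96 of 100 changes of 2, with 11 false calls. Normalized counts were scaled to the mean effective library size, and exon lengths came from the annotation of Ensembl release 84. Replicates are separate pools, and no pair of libraries agreed within sampling noise (chi-square per degree of freedom 9.93 to 70.4). Counting intervals and floors cover counting error only.

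The 39 symbols and the related lists were chosen with earlier results of these data known, and are described by counts and medians without a test of the list. Any member could be named, with values in every library for those called, those whose groups did not overlap, the 6 highest per length and the defining markers, and of each related list the called genes are named, as are further ligands, *C3* and the markers picked after their values were seen. Of the related lists, 1 gene is not reported here and is in none of their counts.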

Additional observations from a re-analysis of the deposited data

Results flagged for a closer look

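In 4 of 40 control groups tested, 1 library stood apart from the other 3 by Dixon's criterion, where chance alone gives about 5% of groups. Control library 3 held 3 of them. *Aif1* had 116 normalized counts there against 71.0 to 73.2 in the other controls, *C1qb* had 1268 against 1040 to 1076, and *Tnf* had 14.1 against 0 to 1.10. In control library 10, *Spp1* had 152 normalized counts against 91.4 to 99.8 in the other controls, still below the lowest mutant at 234. Groups of 3 mutants were not tested in this way.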

How the results depend on the processing

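No paired analysis was possible because the columns of the count table carry no replicate number of the labels. Of the microglia genes, 2 were called higher and 2 lower with RLE or upper-quartile factors, without rounding, with thinned libraries, with either filter on low counts, and in limma-voom. With 1 library left out the number called higher ranged from 1 to 2 and the number called lower from 0 to 2 (edgeR, with 3 and 8 lower at an unadjusted p under 0.05 where it was 0, without mutant library 5 and 12). At that level 4 members were higher in each of these fits. Over all 19684 genes, 3004 and 2782 reached it in either direction. With the run of numbers in the fit 4 of the microglia genes were called lower. The median log2 fold change of −0.031 was −0.006 with upper-quartile factors, −0.042 with 10 counts required in all 7 libraries, −0.018 relative to the median of all genes, 0.005 in libraries 10 to 13 and −0.149 in libraries 2, 3 and 5, and ranged from −0.057 to 0.005 with 1 library left out. In the related lists the 10 genes called higher became 18 with DESeq2, 20 with the run as a covariate and 20 in libraries 10 to 13, and ranged from 3 to 9 with 1 library left out. The 2 called lower became 4 with DESeq2 and ranged from 0 to 2 with 1 library left out (edgeR, with 4 to 6 at an unadjusted p under 0.05). Over all genes 585 were higher and 369 lower, against 1001 and 733 with DESeq2, 1213 and 992 with the run as a covariate, 1055 and 803 in libraries 10 to 13, and 243 and 81 without mutant library 13. The cause was not tested.

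The sign changed only in genes that did not pass the test. In libraries 2, 3 and 5 the log2 fold change was −0.13 for *Aif1*, −0.16 for *Siglech* and 0.13 for *Mertk*. In libraries 10 to 13 it was 0.10 for *C1qa*, 0.049 for *C1qb*, −0.059 for *Trem2*, 0.095 for *Ly86* and −0.28 for *H2-Aa*. It was 0.003 for *Ly86* with upper-quartile factors, and −0.08 and −0.043 for *H2-Aa* with thinned libraries and with the run as a covariate. With 1 library left out, values ranged from −0.1 to 0.036 for *Csf1r*, −0.04 to 0.23 for *Aif1*, −0.27 to 0.014 for *C1qa*, −0.071 to 0.029 for *C1qb*, −0.023 to 0.25 for *Trem2*, −0.002 to 0.25 for *Siglech*, −0.35 to 0.15 for *Gpr34*, −0.012 to 0.1 for *Sall1*, −0.019 to 0.16 for *Ctss*, −0.18 to 0.12 for *Ly86*, −0.1 to 0.016 for *Mertk*, −0.2 to 0.33 for *H2-Aa*. The members below the filter on low counts did not pass the threshold when it was dropped (edgeR).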
